A study of Mus musculus with 12 samples.

Results

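RNA bound to the tagged ribosomes of sensory neurons was compared with the RNA of the whole ganglion in mouse dorsal root ganglia whose axons had been crushed. The comparison rests on the 6 libraries of injured ganglia, chosen by their labels from the 12 libraries of the study: 3 immunoprecipitates (IP) and 3 inputs. All groups came from Adv-Cre//Ribotag mice, in which Cre made under the advillin promoter switches the ribosomal protein RPL22 to an HA-tagged form, so that controls carried the tag as well. One sciatic nerve was crushed, and the L4-L6 ganglia of the injured side and of the naive side were taken 3 days later, with the ganglia of 4 mice pooled for each replicate. Age, sex and strain background are not given in the sources used here. The input was RNA taken before the precipitation. The 3 libraries of each group were labelled as replicates 1 to 3, so the tests speak for the variation among such pools and no further. The 6 libraries of naive ganglia entered the fit and served as the second comparison. All libraries were made with the QuantSeq REV kit, whose reads start at the poly(A) end of an RNA.

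The ribosome tag marks a cell type through its own Cre. RNA that co-precipitates with the HA tag was on, or near, ribosomes of cells that had used the advillin promoter, which in the ganglion are sensory neurons. A ganglion also holds satellite glia wrapped around each neuronal cell body, Schwann cells around the axons, macrophages and other leukocytes, vessels and connective tissue. Those cells contribute RNA to the input but carry no tagged ribosomes. RNAs kept in the nucleus, or without a reading frame, are not expected on ribosomes either. After a nerve crush, sensory neurons switch on a regeneration programme headed by transcription factors such as ATF3 and SOX11.

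Total counts were 16740279, 12500443 and 18687123 in the IP libraries of injured ganglia and 10412956, 13656228 and 13839648 in the inputs. Counts at 3′ end sites were summed per gene, and levels are given as CPM, counts scaled to a common library size with TMM factors. Since 1 read stands for 1 RNA end, no correction for length was made. The test was edgeR's quasi-likelihood test over 11378 genes, with Benjamini-Hochberg adjustment over all of them and a threshold of 0.05. A gene is called when it passed this test, and differences are log2 values of IP minus input with their standard error (SE).

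The tag and its driver were at like levels in both fractions. Rpl22, the tagged gene, was at 259, 254 and 231 CPM in IP and at 259, 253 and 300 CPM in input. Avil, the source of the Cre promoter, was at 140, 136 and 109 CPM in IP and at 115, 135 and 133 CPM in input. The groups overlapped for both genes, and neither was called (difference -0.13 ± 0.15 and 0.01 ± 0.17, adjusted p = 0.736 and 0.994). The 3′ end counts of Rpl22 do not tell the tagged from the untagged form.

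Between IP and input 675 genes (5.93% of those tested) were called, of which 218 (1.92%) were higher and 457 (4.02%) lower in IP. The median called rise was 0.69 on the log2 scale, or 1.61-fold, and the median called fall was 2.08, or 4.24-fold. When library size was set by total counts alone, 548 genes were higher and 406 lower, and the median of all genes moved from 0.02 to 0.15. Without IP library 1 the calls fell to 61 higher and 279 lower, and without IP library 3 to 75 and 316. In every fit that left out 1 of the 6 libraries, 49 of the higher and 255 of the lower genes stayed called. Without any test, all 3 IP libraries lay above all 3 inputs in 13.0% of the genes and below them in 14.4%.

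**Figure D1:**
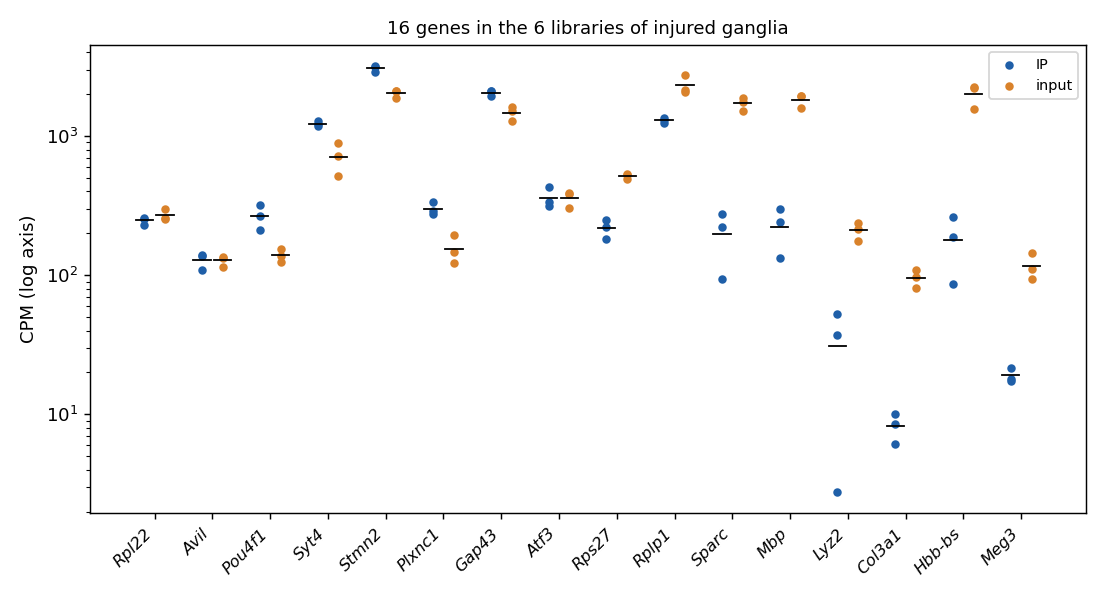
Level of 16 genes in each of the 6 libraries of injured ganglia, in CPM on a log axis. Points are libraries, blue for IP and orange for input, and short bars are means. The neuronal genes Pou4f1, Syt4, Stmn2 and Plxnc1 were higher in IP, the glial, immune, connective tissue and blood genes on the right were lower, and Rpl22, Avil and Atf3 overlapped.

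General neuronal genes were modestly higher in the IP. Of 35 genes on the list, 34 were tested, 11 rose (1.92% of all genes rose) and none fell. The median difference was 0.40 against 0.02 for all genes. Pou4f1, the transcription factor that maintains sensory neuron identity, was at 319, 212 and 268 CPM in IP and at 136, 124 and 155 CPM in input. Its groups did not overlap, and it was 1.92-fold higher (0.94 ± 0.18, adjusted p = 0.00289). Stmn2, a microtubule regulator of growing axons, was at 3117, 2906 and 3193 CPM in IP and at 2105, 2112 and 1873 CPM in input (0.60 ± 0.10, adjusted p = 0.000498). Syt4, a synaptotagmin of secretory vesicles, stood at 1221, 1276 and 1174 CPM in IP against 714, 889 and 520 CPM in input. That was 1.73-fold higher (adjusted p = 0.0105), and these 3 genes, with the vesicle calcium sensor Syt1 (0.78 ± 0.17), stayed called whichever library was left out. The neuronal RNA-binding factor Rbfox3 and the intermediate filament gene Prph also rose, by 0.58 and 0.74, with calls that held in 5 and 2 of the 6 left-out fits. Without IP library 1 the list had 5 calls, as it did without IP library 3, and with total counts alone it had 18.

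Not every neuronal gene moved. Tubb3, the neuronal beta tubulin, was at 6511, 5924 and 6079 CPM in IP and at 5223, 4990 and 6198 CPM in input, so that the groups overlapped (adjusted p = 0.370). The most abundant member, Uchl1, a neuronal ubiquitin hydrolase, was at 9781, 8216 and 9746 CPM in IP and at 5493, 5944 and 7514 CPM in input. It was called (0.55 ± 0.14, adjusted p = 0.0195), but its adjusted p was 0.116 without IP library 1 and 0.0905 without IP library 3, and 0.127 and 0.102 without input libraries 1 and 2. The summed level of the list was 39907 to 43952 CPM in IP and 31159 to 32826 CPM in input, 1.32-fold apart.

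Some genes of small-diameter pain-sensing neurons were higher in the IP. Of 40 nociceptor genes 29 were tested, 4 rose (1.92% of all genes rose) and none fell, with a median of 0.25. Tmem233, a membrane protein gene, was at 589, 491 and 538 CPM in IP and at 284, 302 and 324 CPM in input, 1.78-fold higher (adjusted p = 0.000469). Plxnc1, a semaphorin receptor, was at 333, 275 and 288 CPM in IP and at 146, 194 and 123 CPM in input, 1.93-fold higher (adjusted p = 0.00162). The groups were separate for both genes, and both calls held in all 6 left-out fits. The kainate receptor subunit Grik1 was 1.94-fold higher (adjusted p = 0.0129, and 0.0842 without IP library 1), and the transcription factor Runx1 rose by 0.62. The call of Runx1 held in 1 of 6 left-out fits, and the list had 2 calls without IP library 1. Calca, which encodes the pain peptide CGRP, was at 2711, 3584 and 2850 CPM in IP and at 3009, 3174 and 2709 CPM in input, with overlapping groups (0.04 ± 0.12, adjusted p = 0.920).

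Of 27 large-fibre genes 22 were tested and none was called, with a median of 0.04 that was -0.01 with RLE factors. With 5.93% of all genes called, a count of 0 says little about so short a list, which had 1 rise with sites at the annotated end alone and 1 fall with all tied sites. Nefh, the heavy neurofilament of myelinated axons, was at 987, 955 and 1022 CPM in IP and at 1122, 1170 and 1142 CPM in input. All IP values lay below all inputs, but the difference of -0.21 ± 0.10 did not pass the test (adjusted p = 0.263). Whether the 2 neuronal lists differ was not tested.

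The regeneration programme was present in both fractions, with a list sum modestly higher in IP. Of 44 genes 38 were tested, 3 rose (1.92% of all genes rose) and none fell. The median was 0.28, with 27 members above 0 and 11 below. The summed level was 13234 to 13666 CPM in IP and 10041 to 11244 CPM in input, 1.24-fold apart. Atf3 was at 314, 432 and 336 CPM in IP and at 392, 384 and 306 CPM in input (0.00 ± 0.26, adjusted p = 1.00). Sox11 was at 469, 450 and 466 CPM in IP and at 433, 376 and 329 CPM in input (0.28 ± 0.23, adjusted p = 0.595). Gal, the neuropeptide galanin, was at 984, 1026 and 1268 CPM in IP and at 842, 879 and 1225 CPM in input (0.15 ± 0.26, adjusted p = 0.835). The groups overlapped for Atf3 and Gal. The 3 that rose are membrane and cytoskeleton genes of the growth cone. Basp1 was at 1838, 1589 and 1587 CPM in IP and at 931, 1169 and 1211 CPM in input, 1.52-fold higher (adjusted p = 0.00325 and at most 0.0408 with any library left out). Gap43 was at 2118, 2100 and 1954 CPM in IP and at 1285, 1611 and 1505 CPM in input, 1.40-fold higher (adjusted p = 0.0101, but 0.0687 without IP library 1 and 0.0786 without input library 1). Stmn4 rose by 1.01 (adjusted p = 0.0255, and 0.250 without IP library 1). Without IP library 1 the list had 1 call.

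**Figure D2:**
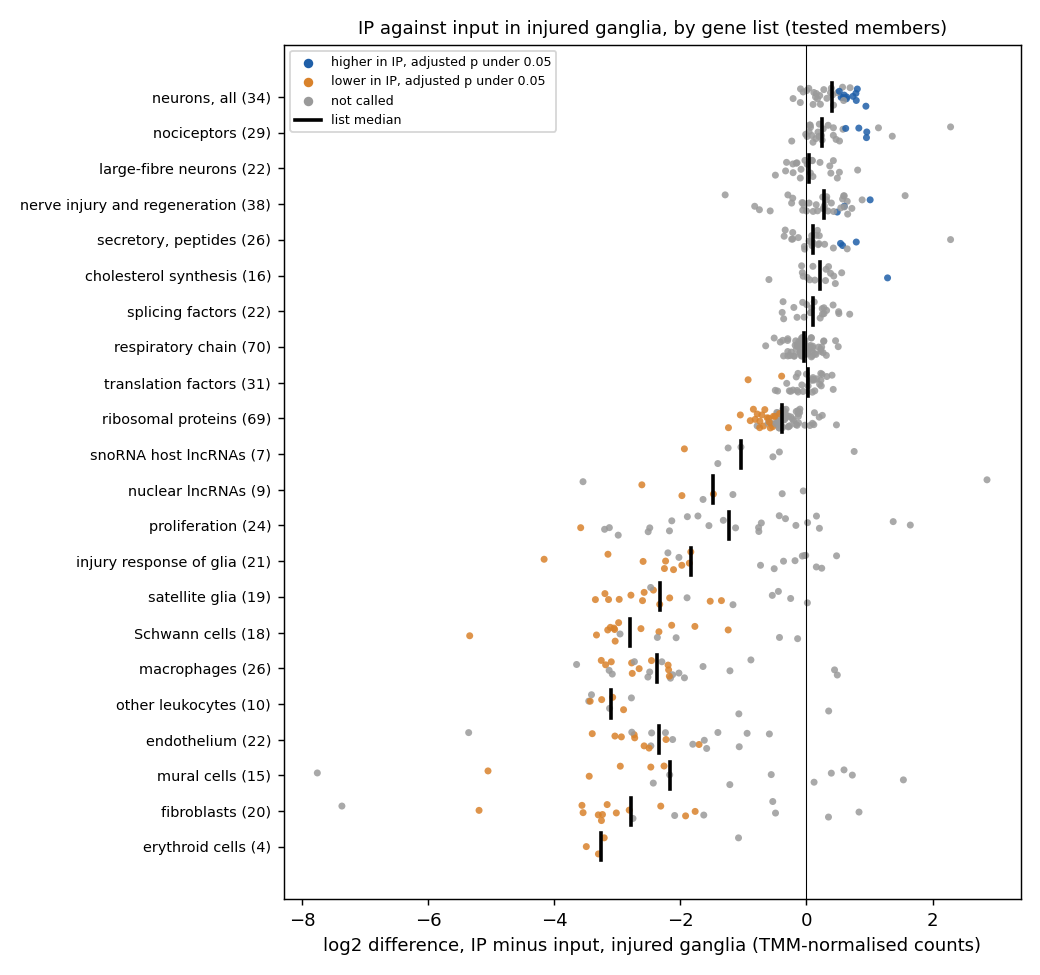
Difference between IP and input in injured ganglia for each tested member of 22 gene lists, on the log2 scale, with the number tested after each name. Blue points rose, orange points fell, grey points were not called, and black bars are list medians. Neuronal lists sit between 0 and 1, ribosomal protein genes just below 0, and the lists of other cell types around -2 to -3.

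The 12 largest among called genes at 10 CPM or more were Lzts3, Magi3, Golga3, Sgip1, Trim41, Cdk15, Galnt5, Nudt10, Klf8, Ccdc181, Idi1 and Gpr85. Magi3, a scaffold protein of cell junctions and synapses (chromosome 3, 104013259 to 104220406, GRCm38.p6), was at 144, 93.7 and 90.5 CPM in IP and at 32.3, 24.8 and 21.2 CPM in input. It was 4.20-fold higher (2.07 ± 0.28, adjusted p = 8.08e-05). Trim41, a ubiquitin ligase, was 2.81-fold higher, Cdk15, a cyclin-dependent kinase, 2.76-fold and Ccdc181 2.55-fold. Gpr85, an orphan receptor of the nervous system, was at 60.005, 74.6 and 69.9 CPM in IP and at 36.02, 24.6 and 25.7 CPM in input, 2.37-fold higher. The call of Lzts3 was lost in all 6 left-out fits (adjusted p up to 0.204), that of Klf8 in 5, those of Sgip1 and Nudt10 in 4, and those of Galnt5 and Golga3 in 3. Nudt10 and Gpr85 were below 0 in naive ganglia (-0.21 and -0.14). Golga3 had the opposite sign when all tied sites were summed (-0.60, adjusted p = 0.0895). Magi3, Trim41, Cdk15, Ccdc181 and Gpr85 had separate groups and stayed called in all 6 left-out fits. Idi1, an isomerase of the cholesterol pathway, was at 443, 487 and 358 CPM in IP and at 92.0, 302 and 133 CPM in input, and its adjusted p of 0.0144 became 0.0561 and 0.0518 without IP libraries 1 and 2 and 0.0619 and 0.0669 without input libraries 1 and 3. It was the single call among 16 tested genes of that pathway (of 22), beside 5.93% of all genes called.

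Genes of the secretory pathway gave 3 rises among 26 tested of 32, beside 1.92% of all genes, and no fall. Scg2 and Scg3, granins of dense-core vesicles, rose by 0.57 and 0.54 beside Syt4. The adjusted p of Scg3 became 0.334 and 0.103 without IP libraries 1 and 3. It was 0.135, 0.0962 and 0.0738 without input libraries 1, 2 and 3. Scg2 was at 779, 881 and 692 CPM in IP and at 486, 597 and 498 CPM in input. Its adjusted p of 0.00886 became 0.0547 without IP library 2 and 0.0561 without input library 1, and the list had 1 call without input library 1. Splicing factors (22 tested of 30) had no call and a median of 0.10. Subunits of the mitochondrial respiratory chain (70 tested of 79) had none either, with a median of -0.04 that was 0.10 with total counts alone.

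Markers of cells without the tag were lower in the IP. Over 8 lists of glial, immune, vascular, connective tissue and red cell genes, 134 of 176 members were tested, 68 fell and none rose, against 4.02% of all genes that fell. The median difference was -2.46, a level of 18.1% of the input. All IP values lay below all inputs in 103 of the 134, against 14.4% of all genes. Fewer cells of a type and less RNA per cell cannot be told apart in bulk libraries, and the same holds for the share of each type in a fraction.

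Satellite glia gave 12 falls among 19 tested genes of 24. Sparc, a secreted matrix protein, was at 93.8, 274 and 222 CPM in IP and at 1772, 1526 and 1892 CPM in input, 8.81-fold lower (-3.14 ± 0.31, adjusted p = 2.52e-06). Apoe, the lipid carrier made by glia and macrophages, was at 84.9, 191 and 241 CPM in IP and at 1261, 1184 and 1602 CPM in input. Gja1, the gap junction protein connexin 43, was at 1.18, 6.42 and 3.74 CPM in IP and at 26.1, 40.9 and 35.9 CPM in input. All IP values lay below all inputs in these 3 genes, with IP library 1 the lowest. The glial transcription factor Sox10 fell by 2.78, and the fatty acid binding protein Fabp7 fell by 2.33. Glul, glutamine synthetase, and S100b, a calcium-binding protein, did not pass (-0.25 ± 0.11 and 0.01 ± 0.11, adjusted p = 0.239 and 0.968). S100b was at 1641, 1927 and 1895 CPM in IP and at 1890, 1891 and 1630 CPM in input, and it is known to be made by some sensory neurons as well.

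Schwann cell genes fell in 13 of 18 tested (of 20), with a median of -2.79. Mbp, myelin basic protein, was at 133, 298 and 240 CPM in IP and at 1935, 1598 and 1957 CPM in input, 8.19-fold lower (adjusted p = 4.37e-07). The myelin genes Mag and Pllp were 10.1-fold and 8.89-fold lower. Pmp22, a peripheral myelin protein, was lower by a smaller ratio, with 1055, 1229 and 1113 CPM in IP and 3059, 2325 and 2649 CPM in input (2.36-fold, adjusted p = 4.34e-06). All 12 satellite glial calls except Sox2, and all 13 Schwann cell calls except Cldn19, held in every left-out fit.

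Among immune, vascular, connective tissue and red cell genes, all calls were falls. Macrophage genes fell in 10 of 26 tested (of 32), other leukocyte genes in 4 of 10 (of 22), endothelial genes in 9 of 22 (of 25), mural cell genes in 5 of 15 (of 17), fibroblast genes in 12 of 20 (of 29) and erythroid genes in 3 of 4 (of 7). Lyz2, lysozyme of macrophages and neutrophils, was at 2.76, 37.3 and 52.6 CPM in IP and at 176, 214 and 239 CPM in input. S100a8, a neutrophil protein, was at 8.11, 88.2 and 41.4 CPM in IP and at 237, 563 and 500 CPM in input. In both genes IP library 1 was the lowest by a wide margin. Col3a1, a fibrillar collagen, was at 8.51, 10.1 and 6.08 CPM in IP and at 97.3, 80.9 and 109 CPM in input, 11.7-fold lower. Dcn, the matrix proteoglycan decorin, was 8.95-fold lower, Ramp2, an endothelial receptor partner, 8.21-fold and Acta2, smooth muscle actin, 7.74-fold. Hbb-bs, adult beta globin, was at 86.2, 262 and 188 CPM in IP and at 2269, 1563 and 2200 CPM in input, 11.3-fold lower (adjusted p = 1.20e-05). Hbb-bs and Hbb-bt are near-identical copies, and how reads were split between them is uncertain.

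The immune and vascular counts depended on single libraries. Macrophage calls were 6 without IP library 1, without input library 2 and without input library 3, and 5 without IP library 2. Endothelial calls were 5 without IP library 1. Mural genes were mixed, with 5 of 15 tested members above 0, none of them called. Their summed level was 566, 656 and 452 CPM in IP and 317, 565 and 693 CPM in input, with overlapping groups, and most of it was Mcam, an adhesion molecule (0.39 ± 0.26, adjusted p = 0.483). Mural calls were 2 without IP library 1 or input library 3 and 3 without IP library 2 or 3. Kcnj8 and Dpt had no count in any of the 3 IP libraries, but neither was called.

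A remainder of these RNAs was measured in every IP. Among the 56 markers of these lists that fell and had at least 30 CPM in input, the level in IP was 12.8% of input at the median. The range was 8.47% to 42.3%. These markers were picked because they fell, so low percentages are built into them. All 134 tested members had a median of 18.1%. The picked markers had medians of 16.5% for satellite glia, 12.4% for Schwann cells, 14.7% for macrophages, 10.9% for fibroblasts and 10.2% for erythroid genes. Over all tested members of the same lists the medians were 19.9%, 14.4%, 19.3%, 14.5% and 10.5%. The summed level of the macrophage list was 140, 268 and 304 CPM in IP against 832 to 1124 CPM in input. For erythroid genes it was 138, 395 and 296 CPM in IP against 2185 to 3253 CPM in input. IP library 1 thus had the lowest sums in both lists, and IP library 2 or 3 the highest. By group means, the macrophage sum in IP was 23.9% of input and the erythroid sum 9.81%. The glial sums were nearer to input. Satellite glial genes summed to 3063, 3854.5 and 3778 CPM in IP, 47.5% of input by the means. That sum includes S100b and Glul, which were not called. Schwann cell genes summed to 1829, 2478 and 2063 CPM in IP, 33.5% of input by the means.

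**Figure D3:**
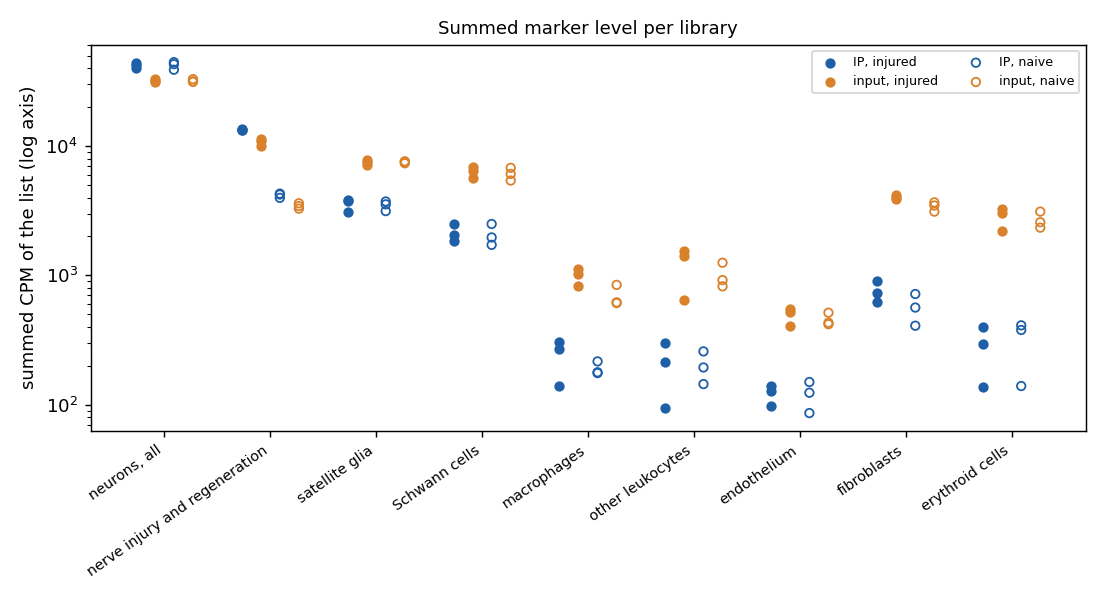
Summed CPM of 9 gene lists in each library, on a log axis. Filled points are injured ganglia and open points naive ganglia, blue for IP and orange for input. The neuronal sums are slightly higher in IP, the sums of the 7 lists of other cell types drawn here, which leave out mural cells, are lower in IP in both kinds of ganglia, and the regeneration list is higher in the injured libraries of both fractions.

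Genes that glia and other cells switch on after injury were also lower. Of 26 genes 21 were tested, 9 fell (4.02% of all genes fell) and none rose, with a median of -1.83. Vim, the intermediate filament vimentin, was at 105, 193 and 173 CPM in IP and at 763, 722 and 761 CPM in input (4.77-fold lower, adjusted p = 8.03e-05). Mt1 and Mt2, metallothioneins, were 3.62-fold and 3.94-fold lower, and the interferon-induced gene Ifitm3 was 8.87-fold lower. Lcn2, the iron-binding acute phase protein lipocalin 2, was at 0.08, 2.07 and 0.66 CPM in IP and at 11.2, 19.9 and 18.4 CPM in input. Cd44, a hyaluronan receptor on the same list, overlapped between the groups (0.16 ± 0.17, adjusted p = 0.719). Without IP library 3 the list had 5 calls and a median of -1.08, and with total counts alone the median was -1.15. Of 24 tested proliferation genes (of 27), Ube2c was the single call, a fall, beside 4.02% of all genes that fell. Its call (adjusted p = 0.0400) was lost in 5 of 6 left-out fits.

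Among the 12 largest falls were Ifitm6, Foxd2, Cd53, Gjb1, Myoc, Myof, Foxd1, Lcn2 and Plin3, with the unnamed or predicted transcripts LOC102632415, 2900060B14Rik and 5730408K05Rik. Cd53, a tetraspanin of leukocytes, was at 0.08, 0.00 and 0.44 CPM in IP and at 9.25, 14.7 and 11.8 CPM in input. Gjb1, the connexin of myelinating glia, was at 0.24, 0.00 and 0.73 CPM in IP and at 10.1, 8.01 and 24.96 CPM in input. Plin3, a lipid droplet protein, was at 0.87, 4.79 and 4.98 CPM in IP and at 58.0, 38.7 and 71.7 CPM in input, 15.9-fold lower (adjusted p = 8.70e-05). For most of these genes the IP values rest on few reads, and the calls of Foxd2, Myof, Foxd1, Lcn2 and 5730408K05Rik were lost in at least 1 left-out fit.

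In pairs of related genes, 1 member was listed here as neuronal and the other as general or glial. Of the listed neuronal members 7 are also on the general neuronal list above. The share called among all genes was 5.93%. Of 13 neuronal members 2 rose and 1 fell, and of 12 tested general members 4 fell. Ndrg1 was 3.81-fold lower and Ndrg4 was 1.29-fold higher, with Ndrg4 at 3527, 3528 and 3520 CPM in IP and 2828, 2853 and 2505 CPM in input. The adjusted p of Ndrg4, 0.0124, became 0.0754 and 0.0662 without IP libraries 1 and 3 and 0.0548 without input library 3.

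Both members of the membrane glycoprotein pair Gpm6a and Gpm6b fell. Gpm6b was 5.45-fold lower (adjusted p = 6.89e-05). Gpm6a, listed as the neuronal member, was at 66.7, 52.7 and 65.3 CPM in IP and at 167, 170 and 80.2 CPM in input, 2.26-fold lower (adjusted p = 0.0179, but 0.0519 to 0.0742 without any 1 library except input library 3). Eno2, Kif5a, Slc2a3, Ldhb, Elavl4, Rab3a, Aldoa, Tubb3 and Eef1a2 and their partners Eno1, Kif5b, Slc2a1, Ldha, Elavl1, Rab11a, Aldoc and Stmn1 were not called. Stmn2 and Eef1a1 are described with their lists, and Tubb5 had no site tied to it.

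Genes for ribosomal proteins were lower in the IP, by a smaller amount than the markers of other cells. Of 85 genes 69 were tested, 20 fell (4.02% of all genes fell) and none rose. The median was -0.38, or 76.7% of the input, 62 of 69 were below 0, and 39 had all IP values below all inputs, against 14.4% of all genes. Rps27 was at 181, 251 and 223 CPM in IP and at 488, 524 and 530 CPM in input, 2.36-fold lower (-1.24 ± 0.19, adjusted p = 0.000408). Rps29 was at 1143, 1512 and 1282 CPM in IP and at 2364, 2358 and 2582 CPM in input, 1.86-fold lower (adjusted p = 0.000117). Rplp1, a stalk protein, was at 1295, 1342 and 1249 CPM in IP and at 2150, 2073 and 2745 CPM in input. The groups were separate for all 3, and these calls and those of Rps12, Rplp0, Rpl39, Rpl30, Rps16, Rpl32 and Rps14 held in all 6 left-out fits. The count fell to 10 without IP library 1 or input library 3 and to 12 without IP library 3, and it was 12 when total counts alone set the library size and 31 with DESeq2. The median was below 0 in every setting tried, from -0.24 to -0.46. Their summed level in IP was 24727 to 26637 CPM and in input 33340 to 39548 CPM.

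Of 36 translation factor genes 31 were tested, 2 fell (4.02% of all genes fell) and none rose, with a median of 0.03 that was -0.02 with RLE factors. Pabpc1, the poly(A)-binding protein, was at 165, 224 and 169 CPM in IP and at 353, 410 and 296 CPM in input, 1.90-fold lower (adjusted p = 0.0129, but 0.0723 and 0.0622 without IP libraries 1 and 3 and 0.0501 without input library 2). Eef1a1, the general elongation factor, was 1.31-fold lower (adjusted p = 0.0362, lost in 5 of 6 left-out fits, up to 0.132). Eef1a2, its form in neurons and muscle, overlapped between the groups (-0.05 ± 0.14, adjusted p = 0.906). The difference between the 2 lists was not tested.

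Transcripts of ribosomal protein genes are known for starting with a C and a run of pyrimidines, a feature through which their translation is regulated. The windows below are from RefSeq (GRCm38.p6), all on the minus strand, with 10 bases before the annotated start and 20 from it, and they are shown for the 3 called ribosomal protein genes whose annotated start holds a C followed by 4 or more bases that are C or T. Capitals mark that run from the start base on.
Rps27 (chr3:90213629-90213658): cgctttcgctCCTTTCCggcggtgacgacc
Rps15a (chr7:118116128-118116157): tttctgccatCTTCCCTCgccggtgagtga
Rps18 (chr17:33955646-33955675): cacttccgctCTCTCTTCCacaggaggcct
The run was found on the gene's strand at the annotated start of 12 of the 51 tested ribosomal protein genes with a start in the table (23.5%), of 208 of 9298 other tested genes (2.24%) and of 2.49% of all 27025 starts in the table. A missing run says only that these letters are not at the annotated base, which can be off by some bases. Ribosomal protein genes with the run had a median of -0.42 and those without it of -0.38. Other tested genes with the run had a median of -0.05 against 0.02 without it. Rps15a fell by 0.68 and Rps18 fell by 0.50, and their calls were lost in 2 and 5 of the 6 left-out fits (adjusted p up to 0.0723 and 0.164).

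Long noncoding RNAs as a class fell about as often as coding genes, with a lower median. Among 300 tested, 13 fell (4.33%), 1 rose and the median was -0.20, while 444 of 11078 protein-coding genes fell (4.01%) and the median was 0.02. On the list of RNAs held in the nucleus, 9 of 18 were tested, 3 fell and none rose. Of the tested members 8 were below 0, and 1 was above it by 2.86 without being called. DESeq2 called 1 rise and 2 falls on this list. Meg3, an imprinted noncoding RNA, was at 21.6, 18.1 and 17.4 CPM in IP and at 143, 111 and 94.6 CPM in input, 6.11-fold lower (adjusted p = 3.97e-05). Miat was 3.93-fold lower (adjusted p = 0.00494). Malat1, an abundant RNA of nuclear speckles, was at 468, 665 and 405 CPM in IP and at 2211, 1487 and 581 CPM in input. Input library 3 lay below IP library 2, so that its groups overlapped, and its call (adjusted p = 0.0367) was lost without IP library 1 or 3 or input library 1 or 2 (0.137, 0.133, 0.179 and 0.0726). Rian, another imprinted RNA, overlapped between the groups (-0.05 ± 0.24, adjusted p = 0.951). Among 7 tested host genes of small nucleolar RNAs (of 22), Snhg18 fell by 1.94, with an adjusted p of 0.00894 that became 0.0727 without IP library 1.

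Genomic span was set beside the calls as a description. The median span was 43490.5 bp for genes higher in IP, 18939 bp for genes lower in IP and 24397 bp for genes not called. The interquartile ranges overlapped widely, and genes are not independent replicates.

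Counts from repeats were the other large difference between the fractions. Sites in named repeats other than ribosomal RNA held 10.9%, 13.6% and 10.2% of the counts of the IP libraries and 20.8%, 23.4% and 23.6% of the inputs. The means were 11.6% ± 1.76 (SD, n = 3) and 22.6% ± 1.57 (SD, n = 3), a difference of -11.0 percentage points, and the groups did not overlap. The two-sided exact permutation test gave p = 0.1, the smallest that 3 against 3 libraries allow. Ribosomal RNA itself overlapped, with 8.21% to 12.2% in IP and 8.26% to 11.0% in input.

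The same held by place. Sites outside genes, ribosomal RNA among them, held 13.96% ± 1.28 (SD, n = 3) of the counts in IP and 18.9% ± 2.12 (SD, n = 3) in input (-4.90 points, exact permutation p = 0.1). Sites on the opposite or an unresolved strand of genes held 4.07% ± 0.68 (SD, n = 3) and 7.68% ± 0.32 (SD, n = 3) (-3.61 points, exact permutation p = 0.1). Both gaps lay at sites in repeats. Outside genes in repeats the share was 3.18%, 4.52% and 2.97% in IP and 8.29%, 9.42% and 9.81% in input. On the opposite strand in repeats it was 1.44%, 2.43% and 1.35% in IP and 5.09%, 5.88% and 5.98% in input. Away from repeats and ribosomal RNA the shares outside genes were 0.61% to 0.64% in IP and 0.49% to 0.58% in input, the other direction.

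**Figure D4:**
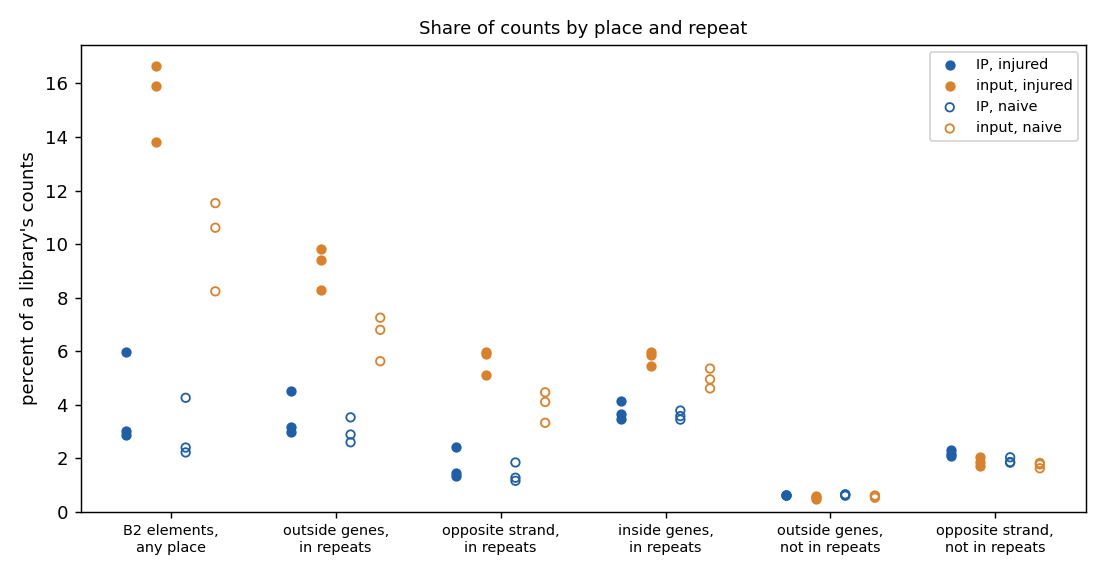
Share of each library's counts, in percent, at B2 elements and by place inside and outside repeats. Filled points are injured ganglia and open points naive ganglia, blue for IP and orange for input. The input libraries lie above the IP libraries in the 4 repeat classes, with the widest gap at B2 elements, and near them in both classes outside repeats.

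The B2 family showed the widest gap by name. B2 elements are short interspersed repeats of rodents, copied from a transfer RNA-like sequence, that can be transcribed by RNA polymerase III and also lie inside introns and 3′ ends of other transcripts. All sites with a B2 name together held 3.03%, 5.97% and 2.87% of the counts in IP and 13.8%, 15.9% and 16.6% in input, 3.90-fold apart. Counts summed by family name were tested over 180 classes, of which 19 rose (10.6%) and 17 fell (9.44%), with 1 class for sites outside repeats among those that rose. The sum of both was 14 without IP library 1, 17 without IP library 3, and 22 and 23 without input libraries 2 and 3. B2 alone, 48522 sites, was 3.89-fold lower in IP (-1.96 ± 0.32, adjusted p = 0.00174) and was called in all 6 left-out fits. Copies of a family are alike, and how reads with several alignments were placed is not given in the sources used here. Fam205a1, Fam205a2, Fam205a3 and Fam205a4, genes at separate places, had equal levels in each injured library. Each had 85 counts over the IP libraries and 0 in input, and each is among the called rises. Whether a read was counted at several copies was not tested, and a family sum or share could then hold it more than once.

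The 5 largest family falls were the B2 with L1 class, the B2 with ERV1 class, srpRNA, the B2 with Alu class and the scRNA with satellite class. The 3 mixed B2 classes held 1 to 4 sites each and few counts, and each was lost in 5 of 6 left-out fits (up to 0.189, 0.158 and 0.175). srpRNA, the RNA of the signal recognition particle, was at 10.9, 50.2 and 16.6 CPM in IP and at 674, 203 and 532 CPM in input, 18.2-fold lower (adjusted p = 0.00880, and 0.0590 without IP library 3). Small nuclear RNA and small cytoplasmic RNA classes, chosen after their values were seen, were 11.6-fold and 7.05-fold lower and were called in all left-out fits. The B1-related Alu class and the ID class fell by 0.50 and 0.62. The scRNA, srpRNA and snRNA names stand for short noncoding transcripts and their copies, and the Alu and ID classes were also chosen after their values were seen.

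The 5 largest family rises were the low complexity with simple repeat class, CR1, TcMar-Mariner, a mixed low complexity class and the simple repeat class that reaches outside repeats. The first was lost in 4 of 6 left-out fits (up to 0.131), TcMar-Mariner in 5 (up to 0.265) and the mixed class without IP library 1 (0.127). CR1, an old interspersed family, was at 84.3, 113 and 94.7 CPM in IP and at 45.5, 50.5 and 31.3 CPM in input, 2.30-fold higher and called in all left-out fits. hAT-Charlie (0.0660 without IP library 1) and L1 elements, chosen after their values were seen, rose by 0.56 and 0.23. The L1 call was lost in each of the 6 left-out fits, and under total counts alone (adjusted p = 0.0740). All sites with a simple repeat or low complexity name lay in the block read as the plus strand, so their strand is not known.

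At the level of single sites, 1157 of 46229 were higher in IP (2.50%) and 1153 were lower (2.49%). These counts depended on single libraries. They were 225 and 184 without IP library 1, 241 and 225 without IP library 3, and 727 and 575, 381 and 420, and 392 and 369 without input libraries 1, 2 and 3. With total counts alone they were 284 and 1165, and with RLE factors 505 and 1165. The split differed by place. At annotated 3′ ends outside repeats 584 of 8969 rose and 141 fell, but with total counts alone 136 rose and 177 fell there, and with RLE factors 241 and 159. In repeats 208 of 7292 sites inside genes, 311 of 5790 on the opposite strand and 429 of 9197 outside genes fell, with medians of -1.12, -1.79 and -1.66, and 66, 6 and 19 rose. Of 13674 tested sites with a B2 name, 858 fell and 8 rose, while the 161 at annotated 3′ ends had 4 of each and a median of 0.02.

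The 6 sites with the largest called falls had no read in any IP library, and 5 of them were B2 copies. None of these calls held in every left-out fit. That of Gm34322 held in 3 of 6 (adjusted p up to 0.0929), that of Znrf3 in 4 (up to 0.0756) and the others in at most 2. The site inside the predicted gene Gm34322 (chromosome 9, 61450326 to 61450351, GRCm38) had 235, 296 and 149 reads in the inputs, at least 239-fold higher than a floor of 3 reads over the 3 IP libraries. The site inside Znrf3 on its strand (chromosome 11, 5401527 to 5401552) had 88, 103 and 37 reads in the inputs. The 6 largest called rises had no read in any input. The most stable was a site outside genes and repeats (chromosome 1, 44003202 to 44003249) with 80, 64 and 58 reads in IP, at least 63.8-fold higher and called in all left-out fits. The others lay in Cpsf6, Rpf2 and Phf3 and in an L1 and a hAT-Charlie element outside genes, with calls that held in at most 2 left-out fits.

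The use of alternative 3′ ends was compared as the share of each site in the counts of its gene, over 5282 genes with more than 1 tested site. A difference between IP and input was called in 2 genes (0.0379%), Mbp and Ntrk2. Over the same genes 118 had an unadjusted p under 0.05.

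Ntrk2 encodes TrkB, the receptor for brain-derived neurotrophic factor, and is known to give a full-length kinase and truncated forms that end far upstream. The gene lies on chromosome 13 from 58806472 to 59133970 (GRCm38.p6, plus strand), and its 8 tested sites formed 4 within 5186 bp of the annotated end and 4 between 196972 and 201651 bp upstream of it. The upstream sites held 10.6%, 13.4% and 17.05% of the counts in IP and 50.6%, 49.6% and 53.4% in input. The groups were far apart, while the total level of the gene overlapped (202, 177 and 199 CPM in IP and 241, 188 and 217 CPM in input). The main upstream site (58936986 to 58937011) had 8.44% ± 2.00 (SD, n = 3) of the counts in IP and 30.9% ± 5.39 (SD, n = 3) in input. The site at the annotated end (59133892 to 59133931) had 32.4% ± 1.03 (SD, n = 3) and 11.7% ± 4.28 (SD, n = 3). In naive ganglia the upstream sites held 7.82% to 13.1% in IP and 36.3% to 46.3% in input, the same direction. The adjusted p for the gene was 0.0156. It was 0.0529 and 0.232 without input libraries 1 and 2, 1.00, 0.296 and 0.0979 without IP libraries 1, 2 and 3, and 0.0565 with the 6 injured libraries alone.

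**Figure D5:**
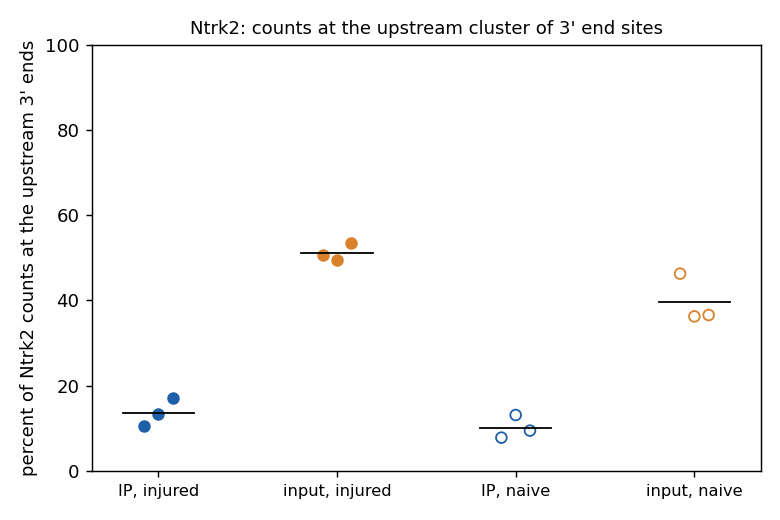
Percent of the Ntrk2 counts that lie at the 4 upstream sites, per library, for IP and input of injured and naive ganglia. Points are libraries and bars are means. All IP libraries lie at or below 17.05% and all input libraries at or above 36.3%.

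Mbp showed a shift of another kind. A site 26980 bp upstream of its annotated end held 16.1%, 6.03% and 10.7% of the Mbp counts in IP and 1.20%, 1.18% and 1.26% in input. The site at the annotated end held 83.0%, 94.0% and 88.4% in IP and 98.8%, 98.8% and 98.4% in input. In CPM the annotated end was far lower in IP, so that the upstream site gained share while its own level did not pass the site test (adjusted p = 0.512). The adjusted p for the gene was 0.00159, and it was lost without input library 1 (0.0529) and with the 6 injured libraries alone (0.0565). The next 6 genes by p, none of them called, were Map1b, Syngr1, Cadm3, Ctsl, Zdhhc18 and Gm2a. Of these, Syngr1, a synaptic vesicle protein, had 2.88%, 8.61% and 3.60% of its counts at a site 6097 bp upstream in IP and 23.6%, 23.7% and 19.4% in input (adjusted p = 0.626). In Gm2a, an activator of lysosomal lipid breakdown, the site at the annotated end held 20.05%, 20.5% and 22.4% in IP and 2.91%, 4.10% and 3.53% in input.

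The same contrast was made in naive ganglia, whose libraries are separate but whose ganglia came from the uninjured side of the crushed animals. Same-numbered injured and naive libraries had the highest correlations of their deviations (0.08, 0.10 and 0.02 in IP and 0.03, 0.04 and 0.08 in input). In naive ganglia 221 genes rose (1.94%) and 568 fell (4.99%). Over all 11378 genes, called or not, the injured and naive differences had a correlation of 0.45. Of the 675 genes called in injured ganglia, 665 had the same sign in naive ganglia, and 452 were called there with that sign, which is 67.0% of the injured and 57.3% of the naive calls. Medians in naive ganglia were 0.33 for neuronal genes, -2.29 for satellite glia, -2.85 for Schwann cells, -2.82 for macrophages and -0.36 for ribosomal protein genes. Medians lay further apart for nuclear noncoding RNAs (-1.48 in injured and -0.53 in naive ganglia), mural cells (-2.17 and -2.68), macrophages and large-fibre genes (0.04 and 0.21), and these differences were not tested. B2 counts were 10.1% ± 1.70 (SD, n = 3) of naive inputs and 2.96% ± 1.13 (SD, n = 3) of naive IP libraries.

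No gene passed the test of the difference between the injured and the naive contrast in edgeR (0.00%), where 384 genes (3.37%) had an unadjusted p under 0.05, and DESeq2 called 14. Without naive IP library 2, edgeR called 2. The 4 genes with the smallest p were Prkd3, Clic4, Mcm3 and Cdkn1a, with adjusted p from 0.416 to 0.593. Cdkn1a, a cell cycle inhibitor, was at 495, 533 and 496 CPM in IP and at 524, 474 and 603 CPM in input of injured ganglia. In naive ganglia it was at 95.0, 98.0 and 94.4 CPM in IP and at 187, 183 and 170 CPM in input. The fractions overlapped in injured and were apart in naive ganglia, and the difference between the contrasts was 0.84 ± 0.18. Clic4, a chloride channel protein, was at 103, 174 and 129 CPM in IP and at 279, 261 and 250 CPM in input of injured ganglia, and at 28.2, 42.3 and 22.9 CPM and 248, 159 and 166 CPM in naive ganglia. Prkd3, a protein kinase, and Mcm3, a replication helicase subunit, had no count in the naive IP libraries and 2.71 to 6.21 and 0.47 to 4.24 CPM in the injured ones.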

How the data were processed

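The deposited table holds raw counts per genomic interval (site) for 12 QuantSeq REV libraries, not normalized by the authors as far as the values show. The submitters' processing notes name bcl2fastq 2.17, STAR, HTSeq, GRCm38 and mm10 without roles, and site calling and the handling of reads with several alignments are not given in the sources used here. Of 178451 lines 20 were damaged and left out, and 17 unnamed columns were not used. Sites in the first block were read as the minus strand and in the second as the plus strand. They were tied to RefSeq genes (GRCm38.p6) reaching 200 bp past the 3′ end, with strands from the RefSeq start table (27025 genes) or from counts within 100 bp of an end (2138 genes). The readings were the same in 99.8% of 8236 genes with both. A total of 73075 sites in 16152 genes held 77.3% of counts, and 5514 genes had no strand. Positions are printed as deposited, and whether they count from 0 or 1 is not stated.

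Gene sums used tied sites outside repeats or at the annotated end, without ribosomal RNA genes. edgeR 4.0.16 (R 4.3.3) fitted all 12 libraries with 1 mean per group, TMM factors and filterByExpr, and limma 3.58.1 and DESeq2 1.42.0 were at hand, DESeq2 as an alternative. Use of sites was tested with diffSpliceDGE. Folds against a group without reads are bounds from a floor of 3 reads and cover counting error only. Named genes were the 12 largest called differences in each direction with all 3 number-matched pairs in that direction and at least 10 CPM in the higher group, the 3 largest called and 2 most abundant members of each list, the gene pairs, and 6 fixed names. For sites the rule took 6 in each direction at 2 CPM or more, for families 5, and for site use 8 genes. Further genes were named from the lists after their values were seen. The comparison and the lists were chosen with earlier results of these data known. Alternatives were other size factors, filters, sites and designs, and leaving out each library. The values of 1 gene pair are not reported here.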

Additional observations from a re-analysis of the deposited data

How the results depend on the processing

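The labels do not say whether same-numbered IP and input libraries came from the same pool, and the main fit did not pair them. Correlations of deviations between same-numbered IP and input libraries were 0.03, 0.03 and 0.01 in injured ganglia. They were 0.01, 0.01 and 0.01 in naive ganglia. Each was small but the highest of its library. Deviations from a mean of 3 libraries are not independent of each other, and whether the numbers pair the pools was not tested. With the replicate block, calls were 935 genes, 2848 sites, 0 interaction genes and 2 genes by site use, with 37 families, against 675, 2310, 0, 2 and 36 without it. Gene calls were 1049 with DESeq2, 1200 with all tied sites, 430 with sites at the annotated end alone and 340 to 547 with a library left out, against 675. Interaction calls were 14 with DESeq2 and 0 to 2 with a library left out. Site calls were 7209 with DESeq2, 1449 with total counts alone, 4046 without a filter, 3878 with the 6 injured libraries and 409 to 2541 with a library left out, against 2310. Family calls were 22 without a filter and 14 to 29 with a library left out, against 36. Calls by site use were 0 with the 6 injured libraries, 1 with sites of at least 5% of their gene and 0 to 2 with a library left out. The differences in shares outside genes, on the opposite strand and in repeats ranged from -5.93 to -3.81, -4.00 to -3.41 and -12.004 to -10.3 points with a library left out, and were -6.09, -3.95 and -12.1 without ribosomal RNA counts. No alternative was run for the other shares. Among named genes, Golga3 turned from 1.66 to -0.60 (adjusted p = 0.0895) when all tied sites were summed, and 34 of 87 called ones lost their call without at least 1 library. The causes were not tested. Precision is limited by 3 pools per group and, for low genes in IP, by a few reads.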
